A study of Mus musculus with 6 samples.

Results

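A group of 8 genes was followed in MLO-Y4 cells, and all carry amino acids into the cell, make serine and glycine, or sense amino acid supply. They were chosen by gene symbol: the transporters Slc7a5, Slc7a11, Slc7a2 and Slc1a5, the enzymes Psat1, Psph and Shmt2, and the leucine sensor Sesn2. The 8 were taken from the 2065 genes of the table analysed, with earlier results of these data known. Their presence there is therefore no result, and all 8 were among the 2056 that passed a filter on low values. MLO-Y4 is an established mouse line labelled osteocyte-like and wild type, derived from bone. RNA was sequenced from 3 libraries labelled normoxia (20% O2, replicates 2, 3 and 4) and 3 labelled hypoxia (2% O2 in a chamber, replicates 1, 2 and 4). All were cultured in the same serum-containing medium, and titles give 24 h for every library, while descriptions give 24, 25 or 26 h. No label names separate cultures, so p-values measure the spread between these libraries only, which may be technical.

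Amino acids enter cells through carriers that each accept a group of related substrates. Slc7a5 (LAT1) brings in leucine and other large neutral amino acids in exchange for glutamine, and Slc1a5 (ASCT2) brings in glutamine and small neutral amino acids. Slc7a11 (xCT) trades glutamate for cystine, the source of cysteine for glutathione, and Slc7a2 (CAT2) carries arginine and lysine. Serine is made from a glycolytic intermediate by Phgdh, Psat1 and Psph in turn, and mitochondrial Shmt2 splits it into glycine and a one-carbon unit carried by folate. Sesn2 binds leucine and, when leucine is scarce, holds back the growth kinase complex mTORC1. Many of these genes are known targets of ATF4, the transcription factor of the integrated stress response. In mouse osteoblasts, Atf4 and amino acid uptake through Slc1a5 are known to serve the synthesis of bone matrix protein.

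ATF4 binds elements of the type TGATGNAA together with C/EBP partners, so the promoters of the genes were searched for it. RefSeq promoter windows (build GRCm38.p6, 250 bases before to 50 after each gene start) were found for 5 of the 8 genes: Slc7a11, Psat1, Psph, Shmt2 and Sesn2. The files use a later build, GRCm39, so no position below belongs to the sequencing data. The 3 windows below are shown because they hold the element or a looser form of it, TGNTGNAA, whose matches on either strand stand in capitals. The looser form contains the stricter one.
Slc7a11, chr3:50443564-50443863, minus strand: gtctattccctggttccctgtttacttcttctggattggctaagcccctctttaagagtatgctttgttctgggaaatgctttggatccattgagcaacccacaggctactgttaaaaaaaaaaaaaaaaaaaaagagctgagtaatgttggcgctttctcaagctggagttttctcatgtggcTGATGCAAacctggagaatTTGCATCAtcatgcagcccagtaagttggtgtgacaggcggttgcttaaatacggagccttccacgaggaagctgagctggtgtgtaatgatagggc
Psat1, chr19:15925010-15925309, minus strand: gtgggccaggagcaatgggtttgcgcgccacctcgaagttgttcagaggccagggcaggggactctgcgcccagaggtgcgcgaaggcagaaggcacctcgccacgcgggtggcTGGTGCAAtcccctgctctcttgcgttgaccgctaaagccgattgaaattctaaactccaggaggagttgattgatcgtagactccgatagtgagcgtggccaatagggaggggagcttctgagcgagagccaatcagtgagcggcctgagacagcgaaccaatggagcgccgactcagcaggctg
Sesn2, chr4:132510407-132510706, minus strand: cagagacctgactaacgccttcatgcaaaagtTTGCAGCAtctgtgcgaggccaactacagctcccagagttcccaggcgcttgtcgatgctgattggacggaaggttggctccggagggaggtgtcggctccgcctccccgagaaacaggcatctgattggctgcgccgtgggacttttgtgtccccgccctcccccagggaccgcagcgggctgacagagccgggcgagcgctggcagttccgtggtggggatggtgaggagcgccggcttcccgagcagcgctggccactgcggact

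The Slc7a11 window held the stricter element 2 times, once on each strand, with first bases at positions -66 and -47 from the gene start. Of 32851 promoter windows of the same length, 3.97% held at least 1 such element and 0.0700% held 2 or more. Among the 1800 windows of genes in the table, 2.78% held at least 1. The looser form was in 14.8% of all windows and in 11.8% of the 1800 windows of genes in the table. The Psat1 match begins at position -136 and the Sesn2 match at -218. Psph, Shmt2 and a second Psat1 window had no match to either form.

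Another 2 motifs were searched on both strands. TGACNNNGC, the core bound by the antioxidant factor NRF2, was in the Psph and Sesn2 windows. It was in 12.4% of all windows and in 12.6% of those of genes in the table. ACGTG, the core bound by hypoxia-inducible factor (HIF), was in the Psph window and the second Psat1 window. It was in 19.6% of all windows and in 25.6% of those of genes in the table. A match is a description of these letters and shows no binding.

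The deposited entries are log2(value + 1), the linear unit is not named, and depth is therefore unknown. Genes were admitted to the table by the authors' own comparison of these same libraries, at a log2 fold change of 1.00 or more in size. A gene's place in the table therefore already fixes that it differs, and the tests below are no independent evidence. Summed linear values of the table ran from 175405 to 183535 in libraries labelled normoxia and from 161067 to 166071 in those labelled hypoxia. Of 25 HIF targets listed for a check of the labels, 16 were in the table, 15 lower and 1 higher in the libraries labelled hypoxia. The glucose transporter Slc2a1, a HIF target, stood at 10.85 ± 0.10 (SD, n = 3) in libraries labelled normoxia and 7.72 ± 0.12 (SD, n = 3) in those labelled hypoxia. Known HIF behaviour runs the other way, so directions below follow the labels and no more. Of 10 osteocyte markers, Pdpn and Trp53inp2 were in the table, both higher under the hypoxia label, and 8, among them Sost and Dmp1, were outside it and could not be checked. Of 15 macrophage and osteoclast markers, 13 were outside it, Cd68 was lower (4.66 ± 0.11 to 3.20 ± 0.16) and Mmp9 higher (0.13 ± 0.03 to 1.29 ± 0.33). Mmp9 was near the floor, with mean linear values of 0.094 and 1.48. The part of these cell types in the results was not tested. In bulk RNA, fewer cells of a kind and less RNA per cell cannot be told apart.

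With values as deposited, all 8 genes were higher in the libraries labelled hypoxia, although Shmt2 and Sesn2 lie below 0 under one other scaling (TMM factors, below). For each of the 8, every library labelled hypoxia lay above every library labelled normoxia. Each passed limma's test (Benjamini-Hochberg adjusted p from 2.86e-08 to 5.89e-06 over 2056 genes), and 0 were lower. Of all tested genes, 79.4% were called higher and 20.6% lower, 100% in all. The groups did not overlap in 99.9% of listed genes, with the hypoxia label higher in 79.3%. A count of 8 of 8 is thus read against a table in which most genes were higher. The changes ran from 1.14 to 2.36 with a median of 1.41, where the median of all tested genes was 1.15 and that of the genes above 0 was 1.23. Of the 8 genes, 6 lay above this last median.

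**Figure D1:**
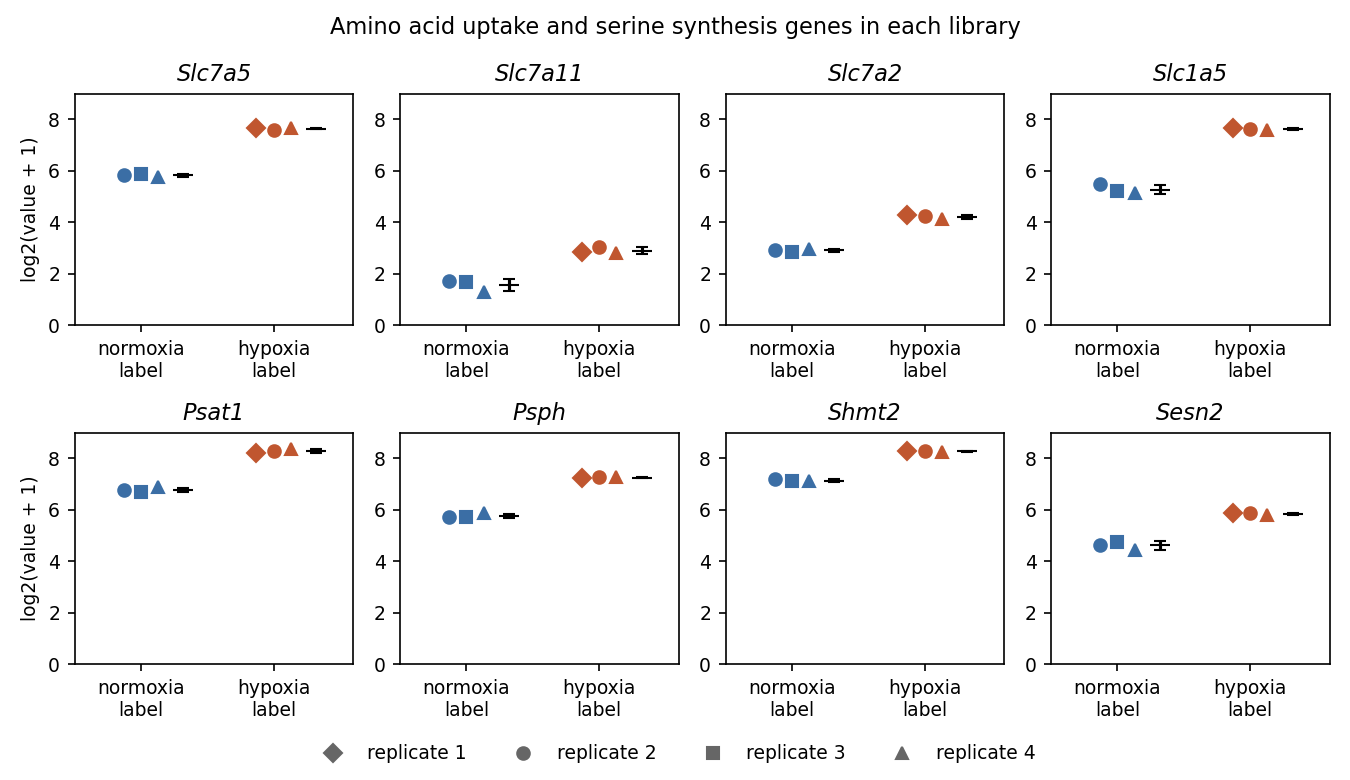
Entries of the 8 genes as log2(value + 1) on the vertical axis, 1 point per library, with marker shape for the replicate number and the black bar for mean ± SD (n = 3 per label). With values as deposited, in all 8 panels the 3 libraries labelled hypoxia lie above the 3 labelled normoxia, and the smallest gap is 1.03, for Sesn2.

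The transporter Slc1a5 (ENSMUSG00000001918, chromosome 7) had the largest change of the 8. Its log2(value + 1) entries were 5.47, 5.19 and 5.14 in normoxia replicates 2, 3 and 4, and 7.66, 7.63 and 7.60 in hypoxia replicates 1, 2 and 4. The groups were 2.13 apart at their nearest libraries, and normoxia replicate 2 stood above the other 2 of its label. The change was 2.36 ± 0.09 (SE; limma, adjusted p = 3.66e-08), and the ratio of mean linear values was 5.23. Slc1a5 ranked 46 among the 1633 higher genes.

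Slc7a5 (ENSMUSG00000040010, chromosome 8) had entries of 5.82, 5.87 and 5.76 in normoxia-labelled libraries and 7.64, 7.60 and 7.66 under the hypoxia label. The libraries of each label lay within a narrow band, with SDs of 0.06 and 0.03. Its change was 1.82 ± 0.07 (SE; limma, adjusted p = 2.86e-08), a ratio of 3.56 in linear values, and it ranked 177 among the higher genes. Slc3a2, the heavy chain that carries both Slc7a5 and Slc7a11 to the membrane, is outside the table and was not analysed here.

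The cystine carrier Slc7a11 (ENSMUSG00000027737, chromosome 3), whose promoter holds the paired elements above, had low entries. They were 1.73, 1.67 and 1.29 in normoxia-labelled libraries and 2.85, 3.03 and 2.80 under the hypoxia label. Normoxia replicate 4 was the lowest library, and the normoxia SD of 0.24 was the largest of the 8 genes. The change was 1.33 ± 0.14 (SE; limma, adjusted p = 5.89e-06), and mean linear values were 1.98 and 6.45, a ratio of 3.26. At such values the pseudocount sets the size of a log2 change: with 0.1 the change was 1.68, and with 5 it was 0.72.

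Slc7a2 (ENSMUSG00000031596, chromosome 8), the arginine carrier that inflammatory signals induce in macrophages, had entries of 2.91, 2.84 and 2.95 under the normoxia label. Under the hypoxia label they were 4.28, 4.24 and 4.12. The groups were 1.16 apart, and the change was 1.31 ± 0.09 (SE; limma, adjusted p = 4.43e-07), a ratio of 2.71 in linear values. Mean linear values were 6.48 and 17.5, so the pseudocount weighs here too. With 0.1 the change was 1.42, and with 5 it was 0.97.

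Psat1 and Psph, the aminotransferase and the phosphatase of consecutive steps of serine synthesis, changed by nearly the same amount as deposited (1.05 and 0.89 after quantile normalization). Psat1 (ENSMUSG00000024640, chromosome 19) had entries of 6.76, 6.69 and 6.86 in normoxia-labelled libraries and 8.20, 8.26 and 8.37 under the hypoxia label. Psph (ENSMUSG00000029446, chromosome 5) had 5.71, 5.71 and 5.86, and 7.21, 7.26 and 7.27. In both genes replicate 4 was the highest library of either label. The changes were 1.51 ± 0.08 for Psat1 and 1.49 ± 0.07 for Psph (SE; limma, adjusted p = 1.43e-07 and 7.71e-08), and the linear ratios were 2.86 and 2.84. Phgdh, which makes the substrate of Psat1, is outside the table and was not analysed here.

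Shmt2 (ENSMUSG00000025403, chromosome 10) had entries of 7.19, 7.10 and 7.10 in normoxia-labelled libraries and 8.27, 8.29 and 8.24 under the hypoxia label. Its change was 1.14 ± 0.07 (SE; limma, adjusted p = 2.59e-07), with a linear ratio of 2.20. This was the smallest of the 8 as deposited and under TMM, but not after quantile normalization (0.68, beside 0.38 for Slc7a2) or with a pseudocount of 5. Its difference from the median change of all tested genes was -0.02, and under TMM it lay below 0. The table was cut at a change of 1.00, and Shmt2 was the nearest of the 8 to that limit.

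The leucine sensor Sesn2 (ENSMUSG00000028893, chromosome 4) had entries of 4.63, 4.76 and 4.45 in normoxia-labelled libraries and 5.86, 5.86 and 5.79 under the hypoxia label. Libraries labelled normoxia were spread more widely (SD 0.16) than those labelled hypoxia (SD 0.04). The change was 1.23 ± 0.09 (SE; limma, adjusted p = 7.83e-07), a linear ratio of 2.39. It lay 0.07 above the median of all tested genes, and below 0 under TMM.

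Reads of 3 of the genes could be shared with other loci. In GENCODE vM21 transcripts, the coding part of Psat1 resembles the processed pseudogene Gm12611 (91.0% over 1056 bases) and that of Shmt2 resembles Gm15544 (90.1% over 233 bases). A Psph transcript overlaps Cct6a on the opposite strand over 452 bases, and no source used here states whether counting was by strand. None of the 3 other loci is in the table.

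The size of each change, and the side of 0 on which it lay, depended on how libraries were scaled. The median over all tested genes, 1.15 as deposited, became 0.36 after quantile normalization and -0.0060 with trimmed mean (TMM) factors, which take most genes of a table as unchanged. Genes entered this table for a change of 1.00 or more in size as deposited, so that premise is not met by the selection. A gene whose deposited change is below the table's median therefore tends to lie below 0 under TMM, and a lower call there is relative to the table. After quantile normalization all 8 genes were still called higher, beside calls for 67.6% of the table as higher and 20.5% as lower (88% in all). With TMM factors Slc1a5 (1.07 ± 0.06; limma, adjusted p = 2.59e-06) and Slc7a5 (0.52 ± 0.08; adjusted p = 0.000767) were called higher, beside 26% of the table called higher and 25.9% called lower (51.8% in all). Slc7a11, Psat1, Psph and Slc7a2 lay above 0 under TMM without passing (0.32, 0.20, 0.19 and 0.11; adjusted p = 0.0606, 0.137, 0.134 and 0.295). Sesn2 and Shmt2 turned below 0 under TMM without passing (-0.05 and -0.17; adjusted p = 0.665 and 0.0719). Of the 8 genes, 7 lay above the median of the table as deposited, 8 after quantile normalization and 6 with TMM factors. Those above it under all 3 were Slc1a5, Slc7a5, Psat1, Psph, Slc7a11 and Slc7a2, of which Slc7a2 lay near it after quantile normalization (0.38 beside 0.36). Relative to the median of the table as deposited, Slc1a5 was 1.21 and Slc7a5 0.66 higher, Psat1 0.35, Psph 0.34, Slc7a11 0.18 and Slc7a2 0.16.

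**Figure D2:**
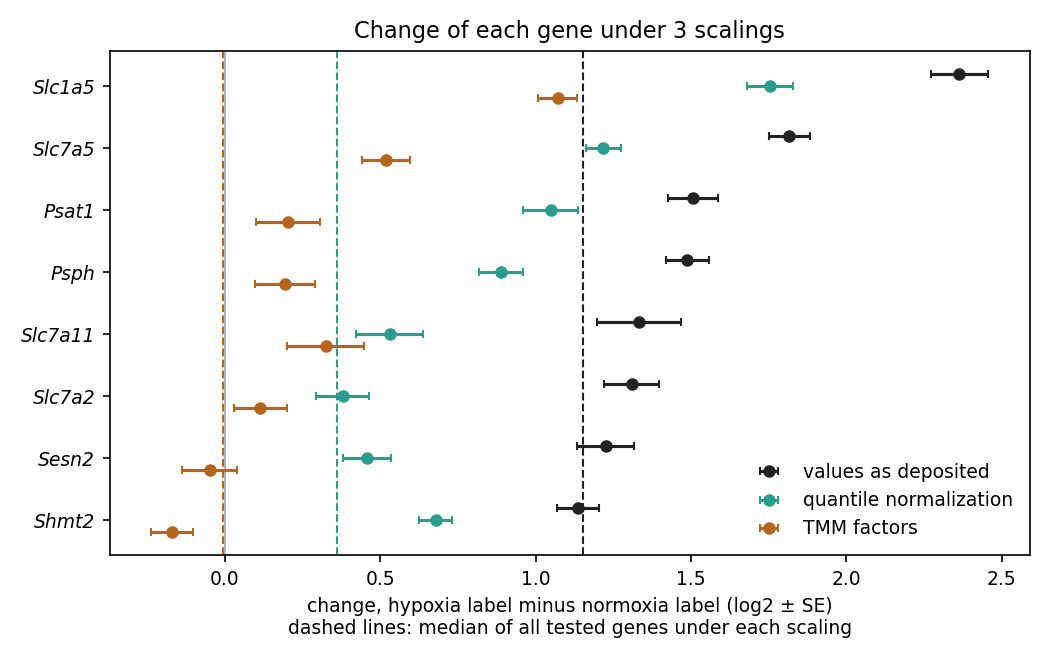
Change of each gene (log2, hypoxia label minus normoxia label, ± SE from limma) with values as deposited, quantile normalization and TMM factors, with a dashed line for the median of all tested genes under each. All genes but Shmt2 and Sesn2 lie right of the median under all 3 scalings, Slc7a2 closely after quantile normalization (0.38 beside 0.36), and Shmt2 and Sesn2 lie below 0 under TMM.

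A difference between 2 genes within a library does not depend on a factor common to the library, apart from the pseudocount. In all, 4 such pairs were compared by an exact two-sided permutation test over the 6 libraries, whose smallest possible p is 0.1. Slc7a5 minus Slc1a5 was 0.35, 0.68 and 0.63 in normoxia-labelled libraries and -0.02, -0.04 and 0.06 under the hypoxia label. The groups did not overlap, and the difference shifted by -0.55 (exact p = 0.1, adjusted over 4 pairs 0.133). Slc1a5 thus gained on Slc7a5 in all libraries labelled hypoxia, although 3 libraries against 3 cannot give a p below 0.1.

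Psat1 minus Psph was 1.05, 0.98 and 1.01 in normoxia-labelled libraries and 0.98, 1.00 and 1.10 under the hypoxia label. These groups overlapped, and the shift was 0.02 (exact p = 0.8, adjusted 0.8), below the SDs of 0.04 and 0.07. Psat1 minus Shmt2 went from -0.44, -0.41 and -0.23 to -0.08, -0.03 and 0.14. The groups did not overlap, and the shift was 0.37 (exact p = 0.1, adjusted 0.133). Slc7a5 minus Slc7a11 shifted by 0.48 (exact p = 0.1, adjusted 0.133), but by 0.15 with a pseudocount of 0.1 and by 1.03 with 5.

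**Figure D3:**
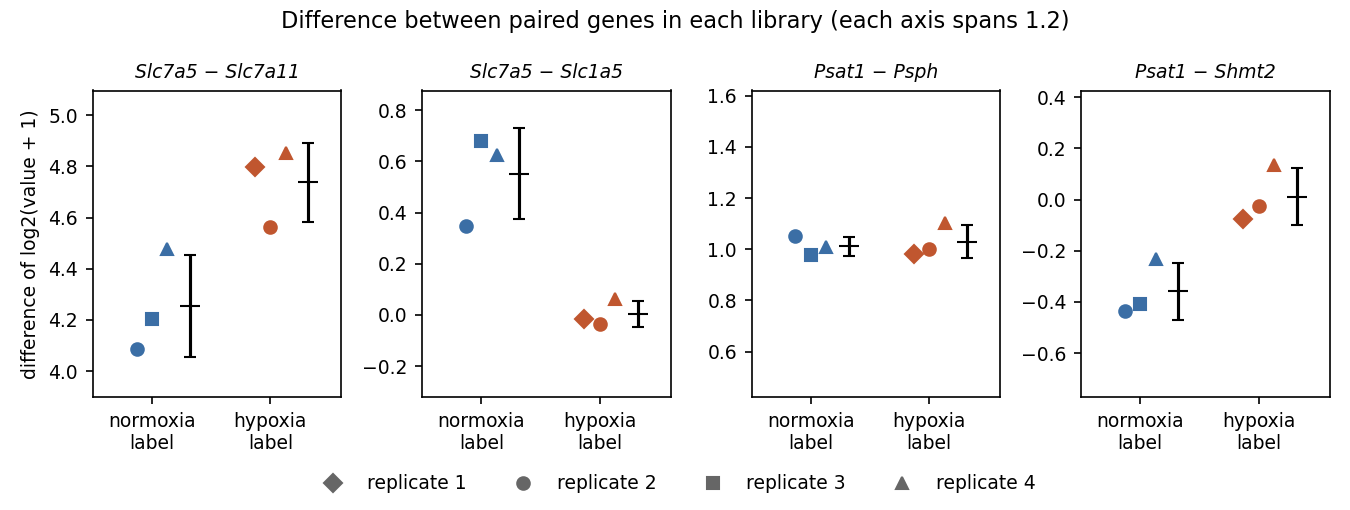
Difference of log2(value + 1) between the genes of each pair, 1 point per library, with marker shape for the replicate number and the black bar for mean ± SD (n = 3 per label). The groups overlap for Psat1 minus Psph and lie apart for the other 3 pairs, where Slc7a5 minus Slc7a11 shifts by 0.15 with a pseudocount of 0.1.

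For each of the 8, the named gene with the nearest pattern was sought among 1751 genes outside the 8, by the root-mean-square distance between entries centred over the 6 libraries. Nfkbiz, an inflammation-induced regulator of NF-kB, was nearest to Slc1a5 (distance 0.04 on the log2 scale), with 4.72 ± 0.17 in normoxia-labelled libraries and 7.07 ± 0.04 under the hypoxia label. The sterol synthesis genes Idi1 and Cyp51 were nearest to Psat1 (0.05) and Psph (0.04), and Psat1 and Psph were as near to each other (0.04). The nearest to Slc7a5 was Eef1akmt1 (0.03), to Slc7a11 Itpripl2 (0.04), to Slc7a2 Pygo2 (0.03), to Shmt2 L3mbtl2 (0.02) and to Sesn2 Ccm2 (0.03). With 6 libraries in 2 groups, this measure mostly reflects the size of the change.

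Among other genes of amino acid transport, 6 of 28 were in the table. All 6 were called higher, between 1.06 and 1.15, beside 79.4% of all tested genes. TMM factors put all 6 below 0 and called 0. That 79.4%, with 20.6% called lower, also stands beside the counts of the lists below. Quantile normalization called 4 of the 6, without Slc7a3 and Slc7a6 (limma, adjusted p = 0.0886 and 0.123). Slc7a1, the widespread arginine carrier related to Slc7a2, went from 4.89 ± 0.11 to 5.95 ± 0.09. The related Slc7a3 changed by 1.12 ± 0.13, and the glycine carrier Slc6a9 by 1.08 ± 0.11. Slc7a6, an exchanger of cationic for neutral amino acids, changed by 1.13 ± 0.16, Slc36a4 by 1.15 ± 0.10 and Slc38a10 by 1.13 ± 0.07. The median of the 6 was 1.12, beside 1.15 for all tested genes, and the other 22 are outside the table.

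Of 18 other enzymes and carriers of serine, glycine and folate one-carbon metabolism, 4 were in the table. All 4 were called higher, beside 79.4% of all tested genes, and TMM factors left 1 called and put 3 below 0. The mitochondrial folate carrier Slc25a32 went from 2.78 ± 0.09 to 4.22 ± 0.07 (change 1.44 ± 0.09; 0.25 and still called under TMM). The thymidylate synthase Tyms (1.28 ± 0.07), Shmt1, the cytosolic form of Shmt2 (1.14 ± 0.10), and the glycine cleavage protein Gcsh (1.10 ± 0.07) lay below 0 under TMM. The median of the 4 was 1.21, and the other 14 are outside the table.

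Genes of branched-chain amino acid use, downstream of leucine uptake through Slc7a5, were 4 of 14 in the table. All 4 were called higher, beside 79.4% of all tested genes, with 1 below 0 and 0 called under TMM. Their median change was 1.36, beside 1.15 for all tested genes. Quantile normalization called 3 of the 4, without Bckdhb (limma, adjusted p = 0.0578). The transaminases Bcat1, in the cytosol, and Bcat2, in mitochondria, changed by 1.49 ± 0.07 and 1.33 ± 0.09. Dbt and Bckdhb, subunits of the branched-chain ketoacid dehydrogenase, changed by 1.39 ± 0.09 and 1.24 ± 0.15 (Bckdhb -0.0041 under TMM).

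Genes of glutamine, asparagine and proline metabolism moved both ways. Of 20, 4 were in the table, 2 called lower and 2 higher. Glul, which makes glutamine, went from 5.11 ± 0.05 to 4.08 ± 0.06 (change -1.03 ± 0.08), and the glutaminase Gls2 from 3.85 ± 0.16 to 2.82 ± 0.11 (-1.02 ± 0.11). Pycr1, the last enzyme of proline synthesis, changed by 1.10 ± 0.11 and Ppat, which uses glutamine to start purine synthesis, by 1.01 ± 0.09, and both lay below 0 under TMM, where Ppat was called lower (-0.24; limma, adjusted p = 0.0265). Quantile normalization did not call Ppat (limma, adjusted p = 0.0781). In arginine and polyamine metabolism Slc7a1 and Amd1 (1.51 ± 0.09), an enzyme of polyamine synthesis, were the 2 of 19 in the table, both higher, with Slc7a1 below 0 and 0 called under TMM. Amd1 has a near-identical copy in mice, so its value is uncertain as that of a single gene. Of 19 other genes of cysteine and glutathione, only Cth was in the table, the enzyme that makes cysteine from cystathionine, at 6.42 ± 0.10 and 8.17 ± 0.06 (change 1.74 ± 0.08; 0.44 and still called under TMM).

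**Figure D4:**
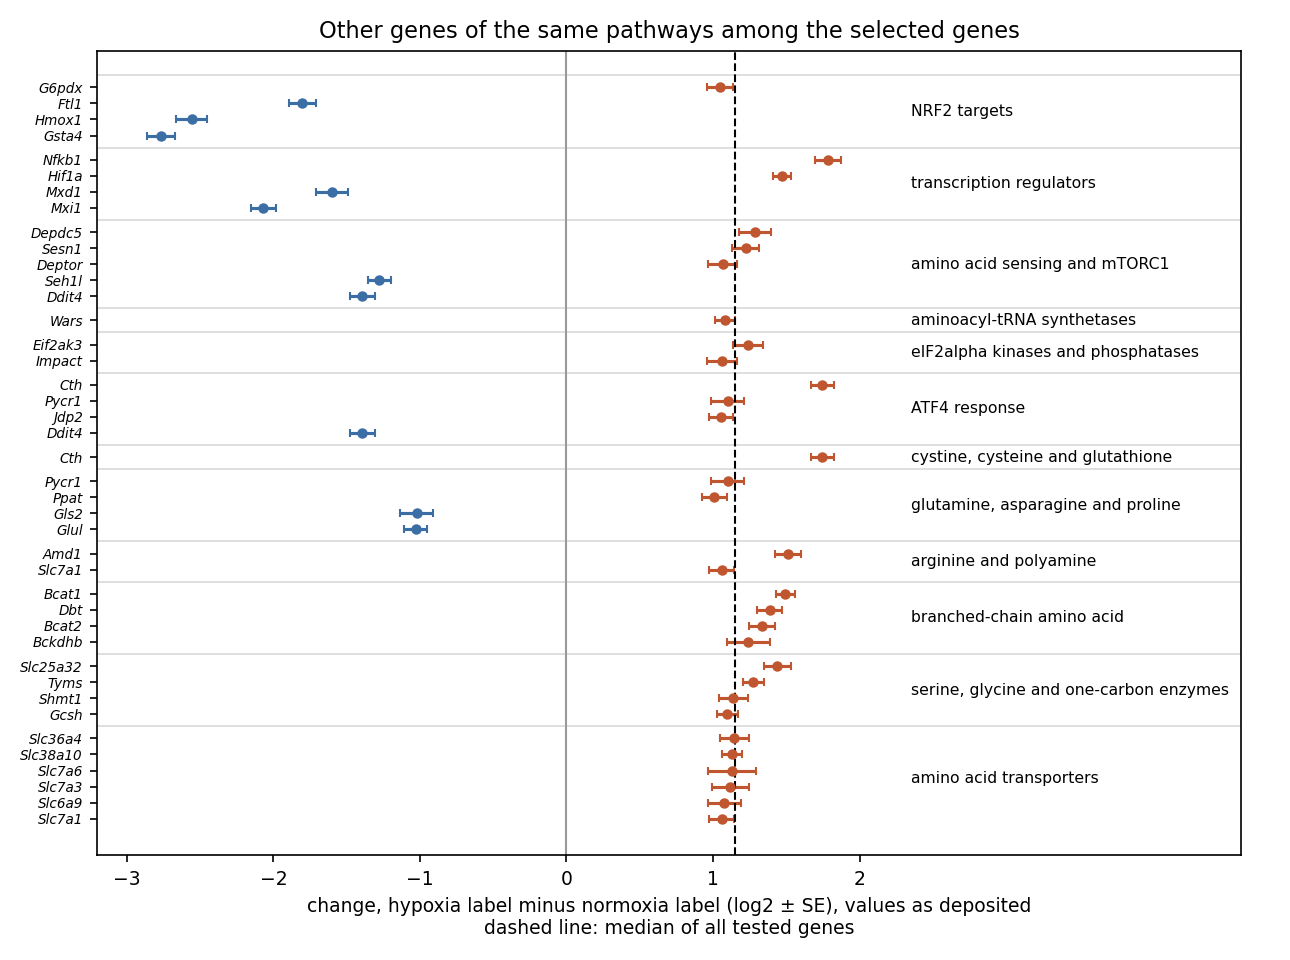
Change of other genes of the same pathways that are in the table (log2, hypoxia label minus normoxia label, ± SE from limma, values as deposited), grouped by list, with orange for higher and blue for lower and a dashed line at the median of all tested genes, 1.15. Most higher genes lie near that median, and many of these turn below 0 under TMM factors, all 6 transporters among them. Nfkb1 and Cth lie to its right at 1.78 and 1.74, and Mxi1 and Ddit4 lie below 0.

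Of 24 other genes of the ATF4 response, 4 were in the table, 3 called higher and 1 lower. Cth was higher, and so were Pycr1 and the AP-1 repressor Jdp2 (1.06 ± 0.08), which both turned below 0 under TMM, where Jdp2 was called lower (-0.22; limma, adjusted p = 0.00965). Ddit4, a stress-induced inhibitor of mTORC1 that ATF4 and HIF both induce, went from 8.29 ± 0.14 to 6.90 ± 0.03 (change -1.39 ± 0.08). The other 20, among them Atf4, Ddit3, Trib3, Chac1 and Asns, are outside the table. Of 14 genes that set eIF2alpha phosphorylation, upstream of ATF4, the stress kinase gene Eif2ak3 (1.24 ± 0.10) and Impact (1.06 ± 0.10), an inhibitor of the amino acid sensing kinase GCN2, were higher. Under TMM Eif2ak3 was not called and Impact was called lower (-0.22; limma, adjusted p = 0.0455). Of 20 aminoacyl-tRNA synthetases, which ATF4 also induces in part, only Wars was in the table (1.08 ± 0.07; -0.22 under TMM).

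In amino acid sensing by mTORC1, 5 genes beside Sesn2 were in the table of 38, 3 called higher (0 under TMM) and 2 lower. Sesn1, a relative of Sesn2, went from 2.16 ± 0.09 to 3.38 ± 0.03 (1.22 ± 0.09), nearly the change of Sesn2. Depdc5, a subunit of the complex GATOR1 that switches mTORC1 off, changed by 1.29 ± 0.11, and the mTOR inhibitor Deptor by 1.06 ± 0.10. Seh1l, a subunit of GATOR2, to which Sesn2 binds, and also of the nuclear pore, went from 7.89 ± 0.12 to 6.61 ± 0.02 (-1.28 ± 0.08). Ddit4, also on this list, was the other lower gene, so the inhibitors of mTORC1 in the table did not share one direction.

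Of 19 transcription regulators known to act on these genes, 4 were in the table. Mxi1 and Mxd1, which compete with the activator MYC for its partner MAX, were lower, from 6.48 ± 0.04 to 4.42 ± 0.14 (-2.07 ± 0.09) and from 3.88 ± 0.11 to 2.28 ± 0.15 (-1.60 ± 0.11). Nfkb1 (1.78 ± 0.09; 0.51 and still called under TMM) and Hif1a (1.47 ± 0.06; 0.17 and not called) were higher. Myc, Nfe2l2 and Trp53 are outside the table. Beside Slc7a11, an NRF2 target, 4 of 15 other NRF2 targets were in the table and 3 were lower: Gsta4 (-2.76 ± 0.10), Hmox1 (-2.56 ± 0.11) and the ferritin chain Ftl1 (-1.80 ± 0.09). The fourth, G6pdx (1.05 ± 0.09), was higher as deposited and called lower under TMM (-0.24; limma, adjusted p = 0.0260).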

How the data were processed

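RNA of 6 MLO-Y4 libraries was sequenced by the authors, with a stranded messenger RNA kit and an RNA integrity number of at least 8, per the labels' protocols. FastQC 0.12.0, DRAGEN and build GRCm39 were used, per the submitters' processing notes. The authors deposited a log2 entry per library, and 2 to each entry minus 1 had 3 decimals for 100% of entries (tolerance 1e-06), so entries were read as log2(value + 1). The authors also deposited a log2 fold change and an adjusted p-value per gene (at most 0.0926), by a test that no source used here names. Another 21 columns, 18 that repeat libraries and 3 for mice and no sample analysed here, were not used.

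Groups were compared with limma 3.58.1 in R 4.3.3 (variance trend, robust), two-sided, with Benjamini-Hochberg adjustment over the 2056 genes whose linear value reached 1 in 3 or more libraries (9 left out), at a threshold of 0.05. The test was checked on simulated data in which most genes were unchanged, unlike this table, so that check does not bear on the calls here. Pairs of genes were compared by exact permutation (SciPy 1.17.1). TMM factors trimmed a fraction of 0.3 of log-ratios and 0.05 of levels at each end. Transcripts were compared with BLAST 2.17.0 (coding part: at least 100 bases at 90% identity; whole transcript: 200 bases at 99%). The genes, the 15 companion lists and the tests were chosen with earlier results of these data known. Named genes were the 8, from every list the 6 genes, or fewer, of lowest adjusted p, and the gene nearest in pattern to each of the 8. Some listed genes are not reported here. Alternatives were other pseudocounts, filters and scalings, a threshold of 0.01, single libraries left out, the replicate number as a block, and no variance trend.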

Additional observations from a re-analysis of the deposited data

How the results depend on the processing

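The alternatives gave 120 values for the 8 genes, of which 114 had the same direction and call, and the other 6 all came from TMM factors: 4 no longer passed, and Shmt2 (-0.17) and Sesn2 (-0.049) turned. Across the other named genes, 789 of 824 values did the same, 17 no longer passed and 18 turned, all 18 under TMM. With TMM factors 2 of the 8 genes were called higher. Others called higher under TMM were 0 transporters, 1 one-carbon gene, 1 ATF4 gene (and 2 lower) and 0 eIF2alpha genes (and 1 lower). The same count was 0 for tRNA synthetases, mTORC1 genes (2 lower), arginine genes, glutamine genes (3 lower) and branched-chain genes. It was 1 for transcription regulators (2 lower), and 0 for NRF2 targets (4 lower) and HIF targets (15 lower). Quantile normalization called 4 of 6 transporters, 3 of 4 branched-chain genes and 1 of 2 glutamine genes, and no other list lost a call under it. The macrophage list had 0 called higher with a filter of 5, which leaves Mmp9 untested. TMM values that turned were Slc7a1 -0.22, Slc6a9 -0.21, Slc38a10 -0.15, Slc7a6 -0.11, Slc7a3 -0.013, Slc36a4 -0.0024, Shmt1 -0.15, Gcsh -0.18, Tyms -0.017, Pycr1 -0.16, Jdp2 -0.22, Impact -0.22, Wars -0.22, Ppat -0.24, Bckdhb -0.0041, G6pdx -0.24, L3mbtl2 -0.081 and Ccm2 -0.042. By construction TMM centres the table's changes on 0. With values as deposited 100% of tested genes were called, so a kept call says little about the 8 genes in particular.

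Leaving out 1 library at a time kept all 8 calls, with changes of 2.30 to 2.46 for Slc1a5, 1.79 to 1.84 for Slc7a5 and 1.19 to 1.42 for Slc7a11. The table was selected on these same libraries, so kept calls are close to fixed in advance and are no independent evidence. The log-ratio Psat1 minus Psph shifted by between -0.0197 (without hypoxia replicate 4) and 0.041. With a replicate block, 8 of the 8 genes were called higher, as were 1627 genes of the table (418 lower). Only replicates 2 and 4 occur under both labels, so those calls rest largely on variance that limma pools across genes. The numbers give only 2 pairs, and deviations of same-numbered libraries correlated at 0.08 (replicate 2) and -0.07 (replicate 4) across genes. So few values cannot decide whether same-numbered libraries had more than the number in common. Depth is unknown, which limits what can be said of low genes such as Slc7a11.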
